A study of Drosophila melanogaster with 6 samples.

Results

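The central brain of the larva was compared with the fat body of untreated larvae, gene by gene, in 4 RNA-seq libraries of a series that holds 6. The members are the 2 brain libraries and the 2 control fat body libraries, chosen by their labels. The other 2 libraries are fat body from larvae fed 25 µM 4-hydroxytamoxifen (4-HT). They entered the choice of genes tested, the scaling between libraries, the estimate of spread and 1 check of restriction. All animals were male Drosophila melanogaster larvae, wandering in the third instar and raised at 25 °C. Each library mixed 6 lines in equal parts. In a y,w background every line carried, at the ZH51C site, a Dam methylase gene split by a 4-HT-dependent intein under the heat-shock promoter hsp70. In 1 line Dam stood alone, and in the others it was fused to PC, H1, HP1, MRG15 or BRM. Both tissues carried these transgenes, so the comparison is of tissues within 1 mixed genotype. A brain library pooled 30 larvae, 5 per line, with the ventral nerve cord removed, and a fat body library pooled 18 larvae, 3 per line. The labels call the 2 libraries of a group biological replicates, and a p-value here measures the spread between such pools.

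The larval brain holds neural stem cells called neuroblasts, their progenitor daughters, neurons and glia. Each cell state is known for its own set of transcription factors, guidance molecules and transmitter receptors. The fat body is a single organ of large polyploid cells that does the work of liver and adipose tissue. It stores fat, glycogen and amino acids, secretes most proteins of the blood, and releases signals that report the state of nutrition to the brain. Hormone-producing cells of the brain and its attached ring gland signal back to it.

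Values are given as CPM, counts of a gene brought to a common library total, over library sizes scaled by TMM, a method that sets the scale on genes that do not stand out between libraries. That step matters here, because 6 genes of storage proteins and their receptors took 0.0465% and 0.0830% of counts in brain and 50.1% and 51.7% in fat body. The brain libraries held 20687696 and 26530280 counts, and the control fat body libraries 25860088 and 50905534. The label check held for most defining markers. The neuroblast genes wor, ase, dpn and mira, the neuronal genes elav and brp and the glial gene repo were higher in brain, and Lsp2, Fbp1 and apolpp were lower. Syt1, the gene of the calcium sensor of synaptic vesicles and a neuronal marker here, went the other way with 80.5 and 109 CPM in brain, against 549 and 608 in fat body (log2 fold change -2.61 ± 0.23 SE, adjusted p = 0.0001), but at -0.21 when libraries were scaled by size alone. Its symbol was matched by identifier to a later annotation. The glial marker Gs2 was not called (adjusted p = 0.132). Markers of other tissues were also counted. Summed over 14 salivary gland markers, of which 9 were tested and none called, the level was 71.1 and 2.02 CPM in brain and 2004 and 3.01 in fat body, so replicate 1 of each tissue stood apart. At 0 were 2 and 2 of these markers in brain and 1 and 5 in fat body. Without fat body replicate 1 the counts described next were 3290 higher and 3162 lower, with 683 and 546 restricted to brain and fat body, and without brain replicate 1 they were 2939 and 2921, with 587 and 503. Hemocyte markers summed to 78.5 and 66.2 CPM in brain and 1833 and 2043 in fat body, with 1 of 11 tested markers higher and 8 lower in brain and none at 0 in fat body. Of the fat body sums, 375 and 549 CPM came from srp, which is also needed to form fat body, so the sums are not of blood cells alone. Muscle markers summed to 26.4 and 33.1 CPM in brain and 316.9 and 631.4 in fat body (8 of 11 tested lower, none at 0). Gut markers summed to 42.8 and 38.3 CPM in brain and 2023 and 2149 in fat body, nearly all of it from LManII, with 6 and 7 of 12 markers at 0 in brain and 0 and 5 in fat body. Eye disc markers summed to 63.1 and 68.8 CPM in brain and 6.402 and 7.501 in fat body (4 of 6 tested higher), tracheal markers to 38.1 and 42.6 CPM in brain and 17.1 and 11.3 in fat body (2 of 9 higher), and testis markers to 5.19 and 8.13 CPM in brain and 20.5 and 13.5 in fat body (2 of 8 higher, 3 lower). The part of these tissues in any result was not tested. A lower value in bulk tissue can mean fewer cells of a type or less RNA per cell, and these cannot be told apart.

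A gene was called when the edgeR quasi-likelihood test gave it a p below 0.05 after Benjamini-Hochberg adjustment across the 10029 tested genes. By this rule 3558 genes (35.5%) were higher in brain and 3460 (34.5%) were lower. A called gene was further named restricted when it reached at least 5 CPM in both libraries of its tissue and both libraries of the other tissue stood at or below 1/32 of the lower of those values. There were 544 brain-restricted genes (5.42% of genes tested) and 503 fat-body-restricted genes (5.02%). The boundary is not a gap. The eye development gene so lay just inside it for brain, with a ratio of 32.05 between its lowest brain and highest fat body value, and otp lay just outside with 31.9. For fat body the integrin gene Itgbn lay just inside and CG5167 just outside, with ratios of 32.01 and 31.98. The 4-HT fat body libraries, whose levels the limits did not use though they entered the scaling and the fit behind the calls, also met the limit for 501 of the brain-restricted genes (92.1%) and 472 of the fat-body-restricted genes (93.8%). In the authors' deposited table all 544 brain-restricted genes were called higher in brain and 502 of the 503 fat-body-restricted genes were called lower. That table compares the same tissues of the same series, so it is no separate evidence.

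**Figure D1:**
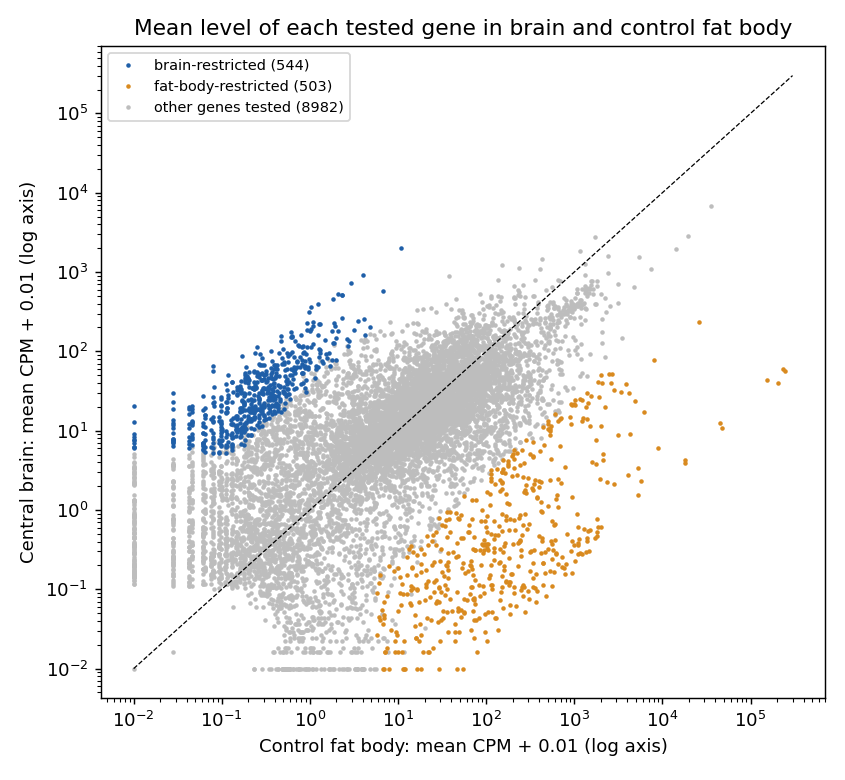
Mean CPM of each of the 10029 tested genes in central brain (vertical, log axis) against control fat body (horizontal, log axis), with 0.01 added so that genes without counts can be drawn and a dashed line of equal levels. The 544 brain-restricted genes lie in the upper left and the 503 fat-body-restricted genes in the lower right, and the storage protein genes are the points farthest right.

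Of the 544 brain-restricted genes, 104 belong to one of 24 lists of transcription factors, receptors, secreted proteins and enzymes, 440 do not, and 73 have no symbol. Of the 503 fat-body-restricted genes, 74 are in the lists, 429 are not, and 16 have no symbol. The 4 classes of genes divided differently between the tissues. Among 211 tested transcription factor genes 125 were higher and 49 lower in brain, with 44 (20.9%) brain-restricted and 6 (2.84%) fat-body-restricted. Among 159 genes of the receptor lists, which include Nimrod genes, 102 were higher and 31 lower, with 32 (20.1%) brain-restricted and 8 (5.03%) fat-body-restricted. The class of secreted proteins had 51 of 127 genes higher and 52 lower in brain by TMM, with 17 (13.4%) brain-restricted and 30 (23.6%) fat-body-restricted. This split depends on the lists counted in the class. Guidance cues and the Beat and Side families gave 28 of the higher and 14 of the brain-restricted genes. Whether each of these genes encodes a secreted protein was not tested. Fat body derived and growth blocking peptides gave 21 of the lower and 16 of the fat-body-restricted genes. Among 153 enzyme genes 50 were higher and 72 lower in brain by TMM, and with 10 (6.54%) brain-restricted and 28 (18.3%) fat-body-restricted. The median log2 fold change, brain over fat body, was 2.82 for transcription factors, 2.73 for receptors, 0.20 for secreted proteins and -0.87 for enzymes, beside 0.11 for all genes tested. With the 20 list genes that had no count in a tissue set at their lower bound, the medians were 2.56 for transcription factors and 2.59 for receptors. Scaling by library size alone moves the median of all genes to 2.49, and counts of calls shift with it. At that scale 171 transcription factor genes were higher and 21 lower in brain, 76 genes of secreted proteins were higher and 43 lower, and 84 enzyme genes were higher and 41 lower, so the enzyme calls leaned to brain, while 17 receptor genes were lower. All 544 brain-restricted genes and 281 of the fat-body-restricted genes also met their rule at that scale. Scaling by size alone raises every brain value and lowers every fat body value. Brain-restricted genes therefore had to meet the limits on level again, and their number is no check of them.

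**Figure D2:**
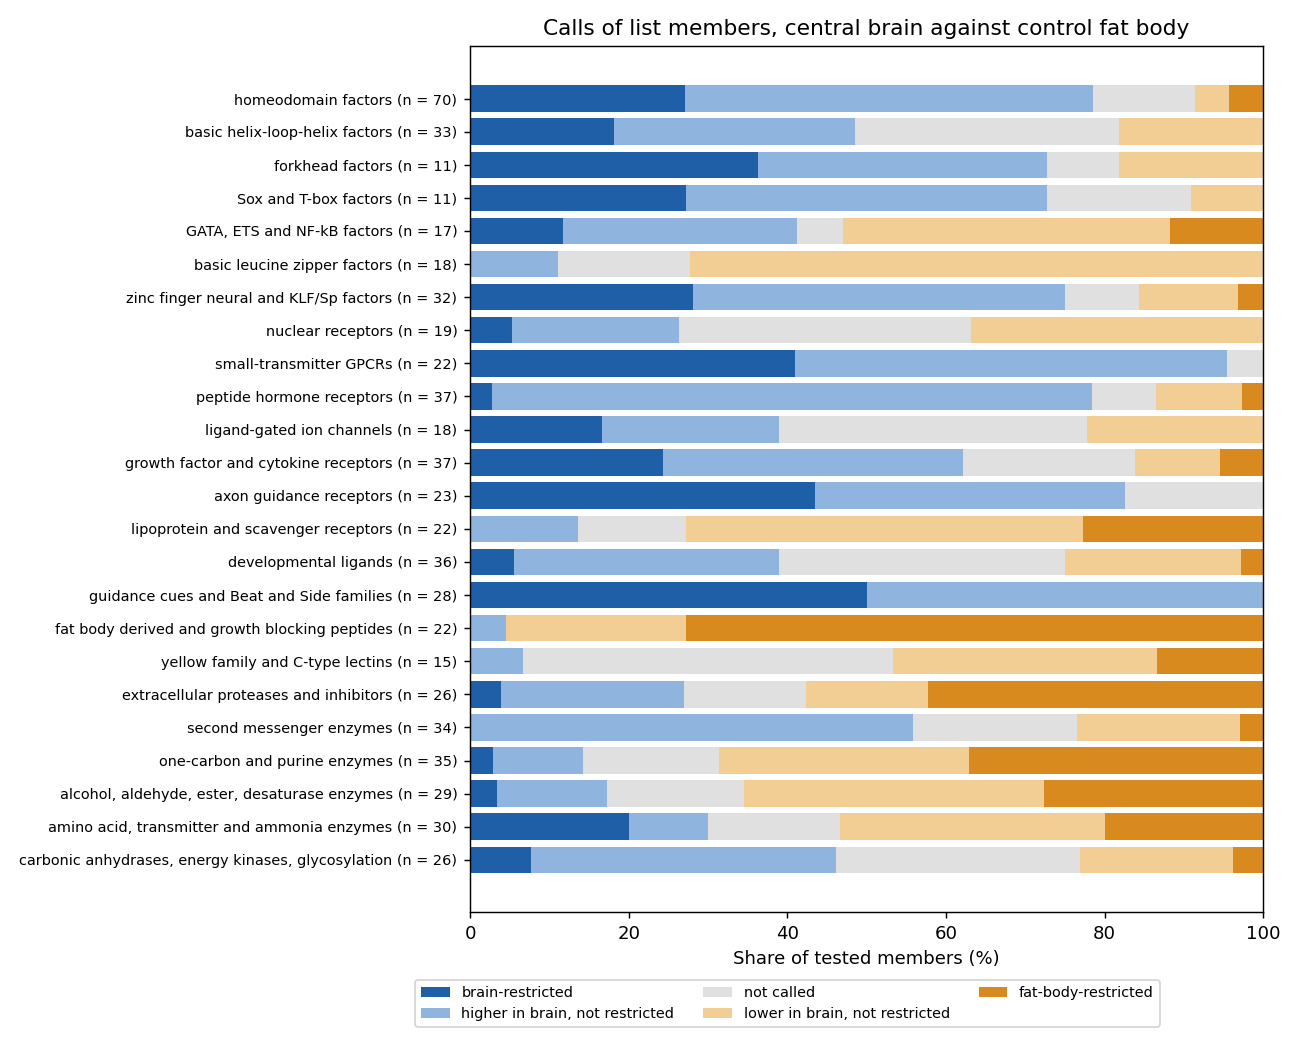
Share of the tested members of each of the 24 lists (rows, n in brackets) that were brain-restricted, higher in brain without being restricted, not called, lower in brain without being restricted, or fat-body-restricted, from left to right in percent. All 28 tested genes of guidance cues and of the Beat and Side families were higher in brain, and 16 of 22 genes of fat body derived and growth blocking peptides were fat-body-restricted.

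Transcription factors of the homeodomain, Sox, forkhead and neural zinc finger families were mostly higher in brain. Of 70 tested homeodomain genes 55 were higher and 6 lower, with 19 brain-restricted and 3 fat-body-restricted (median log2 fold change 5.09, or 4.30 with genes lacking counts at their bound). Rx (FBgn0020617), the retinal homeobox gene active in the embryonic brain, had 16.9 and 20.8 CPM in brain, against 0 and 0.0718 in fat body (brain over fat body ratio 412, 95% counting interval 114 to 3406, adjusted p = 1.40e-05). pros (FBgn0004595), whose product ends self-renewal in the daughters of neuroblasts, had 361 and 676 CPM in brain, against 2.11 and 2.51 in fat body (log2 fold change 7.80 ± 0.59 SE, adjusted p = 4.64e-05). Rx had 2 counts in the fat body libraries together, and the brain replicates of pros lay far apart. The brain gene hbn (FBgn0008636), called homeobrain, had 18.3 and 22.9 CPM in brain, against 0 and 0.144 in fat body (log2 fold change 7.78 ± 0.56 SE, adjusted p = 0.0001), and slou (FBgn0002941) of the NK family had 6.83 and 7.596 CPM in brain, against 0 and 0.0359 in fat body (brain over fat body ratio 313, 95% counting interval 56.02 to 12367, adjusted p = 0.000131). Both genes were named because they met the limits for restriction, under which the tissues cannot overlap.

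The 3 fat-body-restricted homeodomain genes were all Hox genes of the trunk, which give segments of thorax and abdomen their identity. Abd-B (FBgn0000015) had 0.0336 and 0 CPM in brain, against 16.1 and 20.3 in fat body (fat body over brain ratio 1320.3, 95% counting interval 364 to 10920.0, adjusted p = 1.10e-05). abd-A (FBgn0000014) had 0.185 and 0.0742 CPM in brain, against 84.3 and 131 in fat body (log2 fold change -9.73 ± 0.48 SE, adjusted p = 9.08e-06), and Antp (FBgn0260642) had 0.621 and 0.408 CPM in brain, against 43.03 and 80.8 in fat body (log2 fold change -6.92 ± 0.46 SE, adjusted p = 2.71e-05). These genes are also known from the ventral nerve cord, which was cut away from the brain samples. The part of that dissection in their brain values was not tested. In each case both brain libraries stood under 1 CPM and the fat body libraries differed from each other by less than 2-fold.

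Genes that mark neuroblasts and the steps of neuron birth were among the other restricted factors. Among basic helix-loop-helix genes 16 of 33 were higher and 6 lower, with 6 brain-restricted and none fat-body-restricted. ase (FBgn0000137), a proneural gene of neuroblasts, had 31.9 and 27.05 CPM in brain, against 0.198 and 0.144 in fat body (log2 fold change 7.47 ± 0.29 SE, adjusted p = 4.51e-06). dpn (FBgn0010109), a Hes-type repressor that keeps neuroblasts dividing, had 22.3 and 22.4 CPM in brain, against 0.198 and 0.144 in fat body (log2 fold change 7.07 ± 0.29 SE, adjusted p = 5.23e-06). The neural gene tap (FBgn0015550) averaged 30.1 ± 0.5299 CPM in brain and 0.156 ± 0.0335 in fat body (SD, n = 2 each; log2 fold change 7.51 ± 0.45 SE, adjusted p = 1.82e-05), and Fer1 (FBgn0037475) had 14.5 and 14.6 CPM in brain, against 0 and 0.108 in fat body (brain over fat body ratio 208, 95% counting interval 71.2 to 1012, adjusted p = 9.81e-05). On the other side stood Mondo (FBgn0032940), partner of a sugar-sensing complex, with 32.5 and 41.04 CPM in brain, against 388 and 444 in fat body (log2 fold change -3.50 ± 0.22 SE, adjusted p = 2.26e-05), and the repressor gene hry (FBgn0001168) with 3.29 and 3.35 CPM in brain, against 29.2 and 60.7 in fat body (log2 fold change -3.76 ± 0.39 SE, adjusted p = 0.000185). Neither of the last pair reached the 32-fold limit for restriction.

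Zinc finger genes followed the same direction, with 24 of 32 higher and 5 lower, 9 brain-restricted and 1 fat-body-restricted (median 2.95). erm (FBgn0031375), which keeps intermediate neural progenitors from reverting, had 46.5 and 53.9 CPM in brain, against 0 and 0.215 in fat body (log2 fold change 8.50 ± 0.57 SE, adjusted p = 2.90e-05). Genes of the Snail family also turn up in neuroblasts. wor (FBgn0001983) had 39.9 and 32.8 CPM in brain, against 0.264 and 0.0359 in fat body (log2 fold change 8.21 ± 0.68 SE, adjusted p = 6.97e-05), and sna (FBgn0003448) had 16.9 and 17.4 CPM in brain, against 0 and 0.0718 in fat body (brain over fat body ratio 369, 95% counting interval 102 to 3052, adjusted p = 1.32e-05). nerfin-1 (FBgn0028999), whose product holds young neurons in the differentiated state, averaged 365 ± 13.98 CPM in brain and 1.02 ± 0.231 in fat body (SD, n = 2 each; log2 fold change 8.44 ± 1.08 SE, adjusted p = 0.000515). All of these were within 1.5-fold between the brain replicates. The fat-body-restricted member was sug (FBgn0033782), a Gli-similar factor of sugar response, with 0.168 and 0.433 CPM in brain, against 95.5 and 91.8 in fat body (log2 fold change -8.22 ± 0.50 SE, adjusted p = 1.87e-05). Kr (FBgn0001325), best known as a gap gene of the early embryo, had 3.91 and 3.92 CPM in brain, against 114 and 162 in fat body (log2 fold change -5.14 ± 0.26 SE, adjusted p = 9.32e-06).

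Smaller families held few genes but large differences. Of 11 tested forkhead genes 8 were higher and 2 lower in brain, with 4 brain-restricted. The sloppy paired genes slp1 and slp2 encode temporal factors of optic lobe neuroblasts. slp1 (FBgn0003430) had 15.3 and 11.8 CPM in brain, against 0 and 0.0359 in fat body (brain over fat body ratio 572, 95% counting interval 102 to 22593, adjusted p = 7.03e-05). slp2 (FBgn0004567) had 25.6 and 20.5 CPM in brain, against 0 and 0.0359 in fat body (brain over fat body ratio 973, 95% counting interval 175 to 38458, adjusted p = 1.57e-05). Each had 1 count in the fat body libraries together. foxo (FBgn0038197), the factor restrained by insulin signalling, had 5.76 and 6.89 CPM in brain, against 136 and 239 in fat body (log2 fold change -4.89 ± 0.34 SE, adjusted p = 3.49e-05). CHES-1-like was also lower in brain at 15.6 and 21.5 CPM in brain and 43.5 and 91.7 in fat body (log2 fold change -1.87 ± 0.39 SE, adjusted p = 0.00465). Its value turned to 0.54, which was not called (adjusted p = 0.187), when libraries were scaled by size alone. Of 11 Sox and T-box genes 8 were higher and 1 lower (median 3.72, or 3.64 at the bound). SoxN and D are Sox genes of neural progenitors. SoxN (FBgn0029123) averaged 228 ± 13.4 CPM in brain and 0.926 ± 0.09102 in fat body (SD, n = 2 each; log2 fold change 7.95 ± 0.35 SE, adjusted p = 6.53e-06). D (FBgn0000411) averaged 46.1 ± 1.13 CPM in brain and 0.174 ± 0.0589 in fat body (SD, n = 2 each; log2 fold change 7.94 ± 0.67 SE, adjusted p = 7.41e-05). Sox14 (FBgn0005612), an ecdysone-induced gene, was the member lower in brain at 26.5 and 26.6 CPM in brain and 72.9 and 99.5 in fat body (log2 fold change -1.70 ± 0.21 SE, adjusted p = 0.000405), and its log2 fold change was 0.70 at the scale of library size alone.

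Among 17 GATA, ETS and NF-kB genes 7 were higher and 9 lower, with 2 restricted to each tissue (median -1.63, and 0.78 by library size alone, with 10 higher and 6 lower). srp (FBgn0003507), the GATA factor needed to form fat body and blood cells, had 0.285 and 0.285 CPM in brain, against 375 and 549 in fat body (log2 fold change -10.65 ± 0.38 SE, adjusted p = 4.12e-06). Ets98B (FBgn0005659) had 0.0336 and 0.09897 CPM in brain, against 32.7 and 45.97 in fat body (log2 fold change -9.07 ± 0.40 SE, adjusted p = 6.64e-06). The opposite pattern was seen for Ets65A (FBgn0005658) with 56.8 and 53.97 CPM in brain, against 0.198 and 0.251 in fat body (log2 fold change 7.89 ± 0.35 SE, adjusted p = 6.61e-06) and for the GATA gene grn (FBgn0001138) with 7.86 and 9.58 CPM in brain, against 0.198 and 0.179 in fat body (log2 fold change 5.52 ± 0.41 SE, adjusted p = 4.45e-05). The GATA and ETS families each held 1 member restricted to brain and 1 to fat body. The gene srp is also one of the 11 hemocyte markers matched, 8 of which were lower in brain, and their part in its value was not tested.

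The 18 basic leucine zipper genes and the 19 nuclear receptor genes were also not mostly higher in brain by TMM. Of the leucine zipper genes 2 were higher and 13 lower with none restricted (median -1.16, but 1.24 by library size alone, with 12 higher and 1 lower, and 0.21 without storage genes in the totals). CrebA (FBgn0004396), an activator of secretory pathway genes, had 6.04 and 7.19 CPM in brain, against 53.5 and 95.5 in fat body (log2 fold change -3.49 ± 0.33 SE, adjusted p = 0.000123). Of the nuclear receptors 5 were higher, 7 lower and 7 not called (median -0.41, but 1.98 by library size alone, with 13 higher and 2 lower, and 0.95 without storage genes). tll (FBgn0003720), a factor of neuroblasts and the optic lobe, was the only restricted nuclear receptor gene, with 25.1 and 24.6 CPM in brain, against 0.198 and 0.215 in fat body (log2 fold change 6.88 ± 0.44 SE, adjusted p = 2.32e-05). Hnf4 (FBgn0004914), a regulator of fat catabolism, had 5.003 and 5.295 CPM in brain, against 76.9 and 104 in fat body (log2 fold change -4.13 ± 0.22 SE, adjusted p = 1.23e-05), and svp (FBgn0003651) had 22.4 and 24.7 CPM in brain, against 211 and 292 in fat body (log2 fold change -3.41 ± 0.24 SE, adjusted p = 3.27e-05). Both tissues expressed svp and Hnf4 above the floor.

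**Figure D3:**
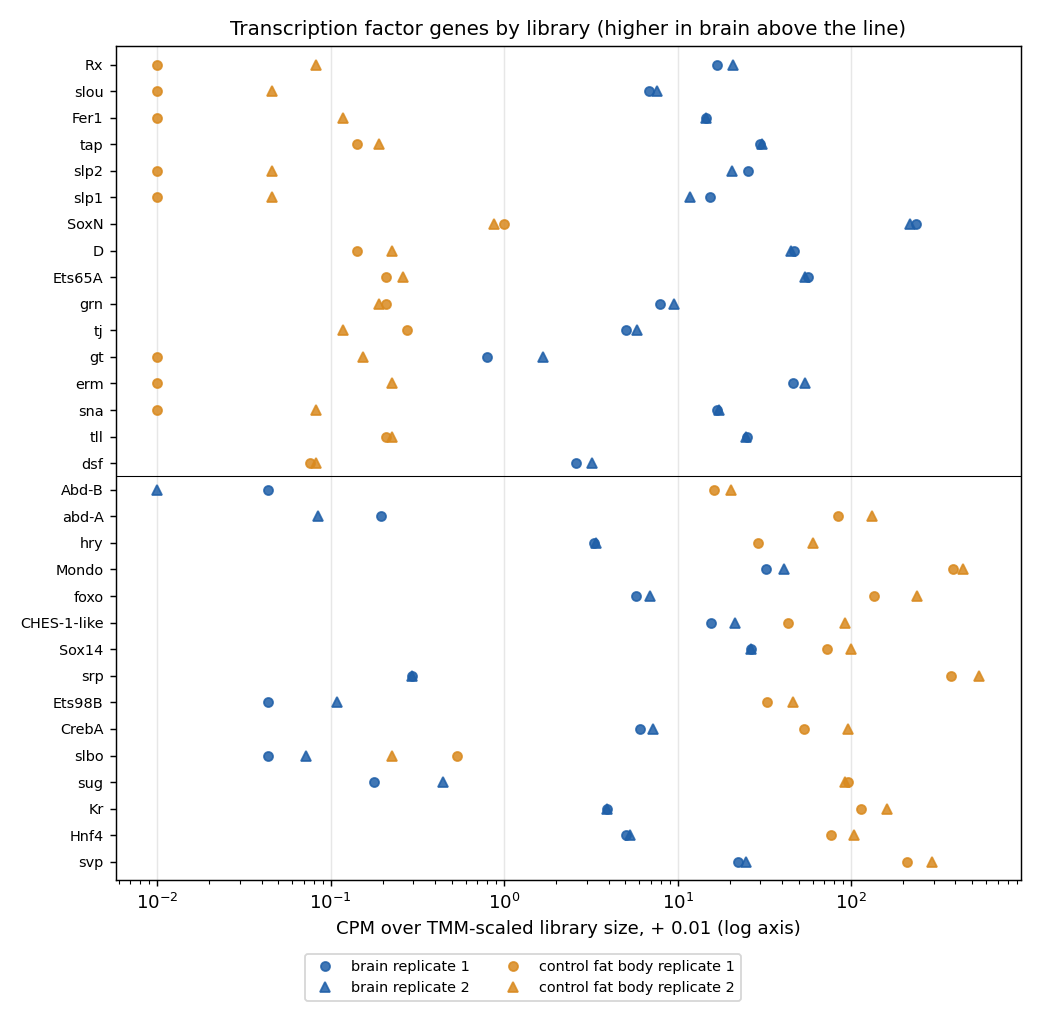
CPM over TMM-scaled library size, with 0.01 added, on a log axis for 31 transcription factor genes in the 2 brain and the 2 control fat body libraries. The 16 genes above the line were called higher in brain and the 15 below it lower; for example srp stands under 1 CPM in both brain libraries and at 375.4 and 549.3 CPM in fat body. Points at 0.01 had no count, and CHES-1-like (not called there, adjusted p = 0.187) and Sox14 change direction when libraries are scaled by size alone. At that scale slbo is not called (adjusted p = 0.604), nor without storage genes in the totals (0.133) or without brain replicate 1 (0.0961), brain replicate 2 (0.0568) or fat body replicate 1 (0.0807), and gt is not called without brain replicate 2 (0.0982).

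G protein-coupled receptors of small transmitters were higher in brain with a single exception that was not called, and channels opened by transmitters were mixed. Of 22 tested G protein-coupled receptors of amines, acetylcholine, GABA and glutamate, 21 were higher and 9 brain-restricted (median 5.14, or 4.76 at the bound). mGluR (FBgn0019985), the metabotropic glutamate receptor gene, had 12.1 and 19.4 CPM in brain, against 0 and 0.108 in fat body (brain over fat body ratio 234, 95% counting interval 80.03 to 1136, adjusted p = 5.23e-05). mAChR-A (FBgn0000037), a muscarinic acetylcholine receptor gene, averaged 25.6 ± 2.14 CPM in brain and 0.255 ± 0.106 in fat body (SD, n = 2 each; log2 fold change 6.74 ± 0.29 SE, adjusted p = 6.26e-06). Dop2R and DopEcR encode dopamine receptors, of which DopEcR also binds ecdysone. Dop2R (FBgn0053517) had 10.1 and 13.5 CPM in brain, against 0.132 and 0.144 in fat body (log2 fold change 6.38 ± 0.35 SE, adjusted p = 1.39e-05). DopEcR (FBgn0035538) had 22.7 and 29.9 CPM in brain, against 0.396 and 0.323 in fat body (log2 fold change 6.21 ± 0.35 SE, adjusted p = 1.42e-05). Of 18 transmitter-gated channels 7 were higher, 4 lower and 7 not called, and 3 were brain-restricted (median 0.64; 11 higher and 1 lower by library size alone). GluClalpha (FBgn0024963), a glutamate-gated chloride channel gene, had 29.3 and 51.1 CPM in brain, against 0.264 and 0.108 in fat body (log2 fold change 7.90 ± 0.51 SE, adjusted p = 2.44e-05). Nmdar2 (FBgn0053513), an NMDA receptor subunit gene, averaged 24.3 ± 4.38 CPM in brain and 0.324 ± 0.102 in fat body (SD, n = 2 each; log2 fold change 6.29 ± 0.31 SE, adjusted p = 8.98e-06). Against this direction Grd (FBgn0001134), a gene of the GABA-gated channel family, had 0.134 and 0.384 CPM in brain, against 6.67 and 11.6 in fat body (log2 fold change -5.08 ± 0.50 SE, adjusted p = 0.000158). Its fat body values were low, yet both were above both brain values.

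Of 37 tested receptors of peptide hormones 29 were higher and 5 lower, but only 1 was restricted to each tissue (median 4.11, or 3.61 at the bound). The limit of 5 CPM has a part in that number. AstC-R1 had 3.53 and 3.58 CPM in brain, against 0 and 0.0359 in fat body, and fell under it. AstC-R2 (FBgn0036789), an allatostatin C receptor gene, had 11.05 and 11.3 CPM in brain, against 0.066 and 0.108 in fat body (log2 fold change 6.87 ± 0.34 SE, adjusted p = 9.70e-06). AkhR (FBgn0025595), the receptor through which adipokinetic hormone mobilises fat, had 0.0839 and 0.0619 CPM in brain, against 223 and 304 in fat body (log2 fold change -11.79 ± 0.40 SE, adjusted p = 4.08e-06). The hormone gene Akh itself, a ring gland marker here, had 2.804 and 1.35 CPM in brain, against 0.264 and 0 in fat body (log2 fold change 4.26 ± 1.20 SE, adjusted p = 0.0173), with higher values in brain replicate 1. A second ligand and receptor were also split between the tissues. CCHa2 (FBgn0038147), a fat body peptide, had 2.79 and 2.21 CPM in brain, against 318 and 285 in fat body (log2 fold change -6.91 ± 0.25 SE, adjusted p = 4.20e-06), and its receptor gene CCHa2-R (FBgn0033058) had 2.84 and 2.82 CPM in brain, against 0.198 and 0.0359 in fat body (log2 fold change 4.78 ± 0.71 SE, adjusted p = 0.00106). Pdfr (FBgn0260753), the receptor of the clock peptide PDF, was lower in brain at 0.369 and 0.668 CPM in brain and 5.87 and 8.07 in fat body (log2 fold change -3.73 ± 0.51 SE, adjusted p = 0.000731), and by library size alone its adjusted p was 0.0542. Ring gland markers, of which 4 of 5 tested were higher and 1 lower in brain, summed to 75.7 and 71.2 CPM in brain and 104.2 and 120.2 in fat body, with 2 and 3 of 7 at 0 in fat body. Their part in the Akh value was not tested.

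Receptors of growth factors and cytokines were mostly higher in brain. Of 37 growth factor and cytokine receptors 23 were higher and 6 lower, with 9 brain-restricted and 2 fat-body-restricted (median 1.85). The genes otk, drl and Ror encode kinase-like receptors of the Wnt pathways. otk (FBgn0004839) averaged 158 ± 2.13 CPM in brain and 0.456 ± 0.289 in fat body (SD, n = 2 each; log2 fold change 8.58 ± 0.92 SE, adjusted p = 0.000232). drl (FBgn0015380) averaged 83.6 ± 5.15 CPM in brain and 0.476 ± 0.166 in fat body (SD, n = 2 each; log2 fold change 7.52 ± 0.26 SE, adjusted p = 4.08e-06). Ror (FBgn0010407) averaged 53.4 ± 1.35 CPM in brain and 0.273 ± 0.0811 in fat body (SD, n = 2 each; log2 fold change 7.67 ± 0.49 SE, adjusted p = 2.38e-05). The receptor kinase gene Alk (FBgn0040505) had 103 and 127 CPM in brain, against 0.99 and 0.646 in fat body (log2 fold change 7.19 ± 0.31 SE, adjusted p = 6.14e-06). Its ligand gene jeb (FBgn0086677) had 6.66 and 18.5 CPM in brain, against 0.066 and 0.0359 in fat body (brain over fat body ratio 290.4, 95% counting interval 80.3 to 2400.1, adjusted p = 0.000166), so that ligand and receptor were both brain-restricted, and jeb was well higher in brain replicate 2 than in replicate 1. Sdr (FBgn0038279), a secreted decoy of insulin-like peptides, had 11.1 and 10.2 CPM in brain, against 0.198 and 0.108 in fat body (log2 fold change 6.19 ± 0.38 SE, adjusted p = 1.98e-05). The Notch receptor gene N (FBgn0004647) had 144 and 153 CPM in brain, against 2.904 and 1.005 in fat body (log2 fold change 6.32 ± 0.72 SE, adjusted p = 0.000299).

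The fat-body-restricted genes of the receptor lists were of other kinds. Pvr (FBgn0032006), the receptor of PDGF- and VEGF-like factors, had 2.22 and 2.56 CPM in brain, against 273 and 439 in fat body (log2 fold change -7.22 ± 0.35 SE, adjusted p = 8.58e-06). et (FBgn0031055), a short relative of the cytokine receptor Domeless, had 0.218 and 0.186 CPM in brain, against 52.4 and 57.5 in fat body (log2 fold change -8.08 ± 0.26 SE, adjusted p = 3.87e-06). Among 22 genes listed as lipoprotein and scavenger receptors 3 were higher and 16 lower, with 5 fat-body-restricted (median -3.46). All 5 belong to the Nimrod family, which includes receptors of phagocytosis. Whether each of the 5 encodes a receptor was not tested. NimC2 (FBgn0028939) averaged 0.434 ± 0.139 CPM in brain and 1711 ± 242 in fat body (SD, n = 2 each; log2 fold change -11.92 ± 0.58 SE, adjusted p = 8.74e-06). NimB4 (FBgn0028542) averaged 0.0857 ± 0.0687 CPM in brain and 382 ± 13.7 in fat body (SD, n = 2 each; log2 fold change -12.17 ± 0.49 SE, adjusted p = 5.00e-06). NimB2 (FBgn0028543) had 0.235 and 0.2598 CPM in brain, against 709 and 737 in fat body, and NimB5 (FBgn0028936) had 0.0336 and 0.0619 CPM in brain, against 173 and 138 in fat body. Blood cells also express Nimrod genes, and the hemocyte markers, given above by their sums, were lower in brain in 8 of 11 cases and none was at 0 in fat body. Their part in the Nimrod values was not tested. The members higher in brain included mgl (FBgn0261260), the fly megalin gene, with 91.1 and 119 CPM in brain, against 4.88 and 5.78 in fat body (log2 fold change 4.29 ± 0.30 SE, adjusted p = 3.35e-05), and the lipophorin receptor gene LpR1 (FBgn0066101) with 20.8 and 23.9 CPM in brain, against 2.18 and 2.44 in fat body (log2 fold change 3.26 ± 0.20 SE, adjusted p = 1.84e-05).

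Most axon guidance receptors and all tested genes of guidance cues and of the Beat and Side families were higher in brain. Of 23 tested receptors 19 were higher and none lower, with 10 brain-restricted (median 4.80). The netrin receptor gene unc-5 (FBgn0034013) had 111 and 113 CPM in brain, against 1.19 and 0.825 in fat body (log2 fold change 6.83 ± 0.34 SE, adjusted p = 8.97e-06), and the Slit receptor gene robo3 (FBgn0041097) had 89.2 and 87.9 CPM in brain, against 0.594 and 0.502 in fat body (log2 fold change 7.35 ± 0.28 SE, adjusted p = 4.36e-06). Toll-6 is a Toll family receptor of neurons, and trn encodes a surface protein with leucine-rich repeats. Toll-6 (FBgn0036494) averaged 43.7 ± 2.19 CPM in brain and 0.174 ± 0.0589 in fat body (SD, n = 2 each; log2 fold change 7.87 ± 0.37 SE, adjusted p = 8.03e-06). trn (FBgn0010452) averaged 107 ± 7.21 CPM in brain and 0.485 ± 0.126 in fat body (SD, n = 2 each; log2 fold change 7.73 ± 0.56 SE, adjusted p = 4.02e-05). Dscam3 (FBgn0261046), of the Dscam family of surface immunoglobulins, had 65.4 and 87.6 CPM in brain, against 0.396 and 0.323 in fat body, and the neuroligin gene Nlg2 (FBgn0031866) had 37.03 and 45.1 CPM in brain, against 0.264 and 0.215 in fat body. For all 6 of these receptors the brain replicates lay within 1.5-fold of each other and both fat body libraries stood under 2 CPM. In the other list, all 28 tested genes of guidance cues and of the Beat and Side families were higher in brain, and 14 were brain-restricted (median 5.93). The Beat and Side proteins bind each other across cells. beat-IIIb (FBgn0053179) had 5.74 and 6.24 CPM in brain, against 0 and 0 in fat body (at least 86.4-fold higher in brain, taking 3 counts as the floor, adjusted p = 0.000308). beat-VII (FBgn0250908) had 11.1 and 12.9 CPM in brain, against 0.066 and 0 in fat body (brain over fat body ratio 521, 95% counting interval 93.4 to 20596, adjusted p = 3.05e-05), and beat-IIa (FBgn0038498) had 32.6 and 35.6 CPM in brain, against 0.198 and 0.108 in fat body (log2 fold change 7.89 ± 0.31 SE, adjusted p = 4.65e-06). The 14 restricted genes were 9 beat genes and 5 side genes.

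Of 36 tested developmental ligands 14 were higher, 9 lower and 13 not called by TMM, but 30 were higher and 1 lower by library size alone (median 2.92). By TMM, jeb and Wnt4 were brain-restricted and daw fat-body-restricted (median 0.53). Wnt4 (FBgn0010453) had 47.6 and 50.04 CPM in brain, against 0.198 and 0.6101 in fat body (log2 fold change 6.76 ± 0.55 SE, adjusted p = 6.39e-05). daw (FBgn0031461), an activin-like ligand by which the fat body controls sugar metabolism, had 9.35 and 11.7 CPM in brain, against 399 and 619.5 in fat body (log2 fold change -5.59 ± 0.32 SE, adjusted p = 1.51e-05). egr (FBgn0033483), the tumour necrosis factor gene of the fly, had 42.98 and 39.2 CPM in brain, against 219 and 299 in fat body (log2 fold change -2.66 ± 0.26 SE, adjusted p = 0.000145), and its adjusted p was 0.310 by library size alone.

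**Figure D4:**
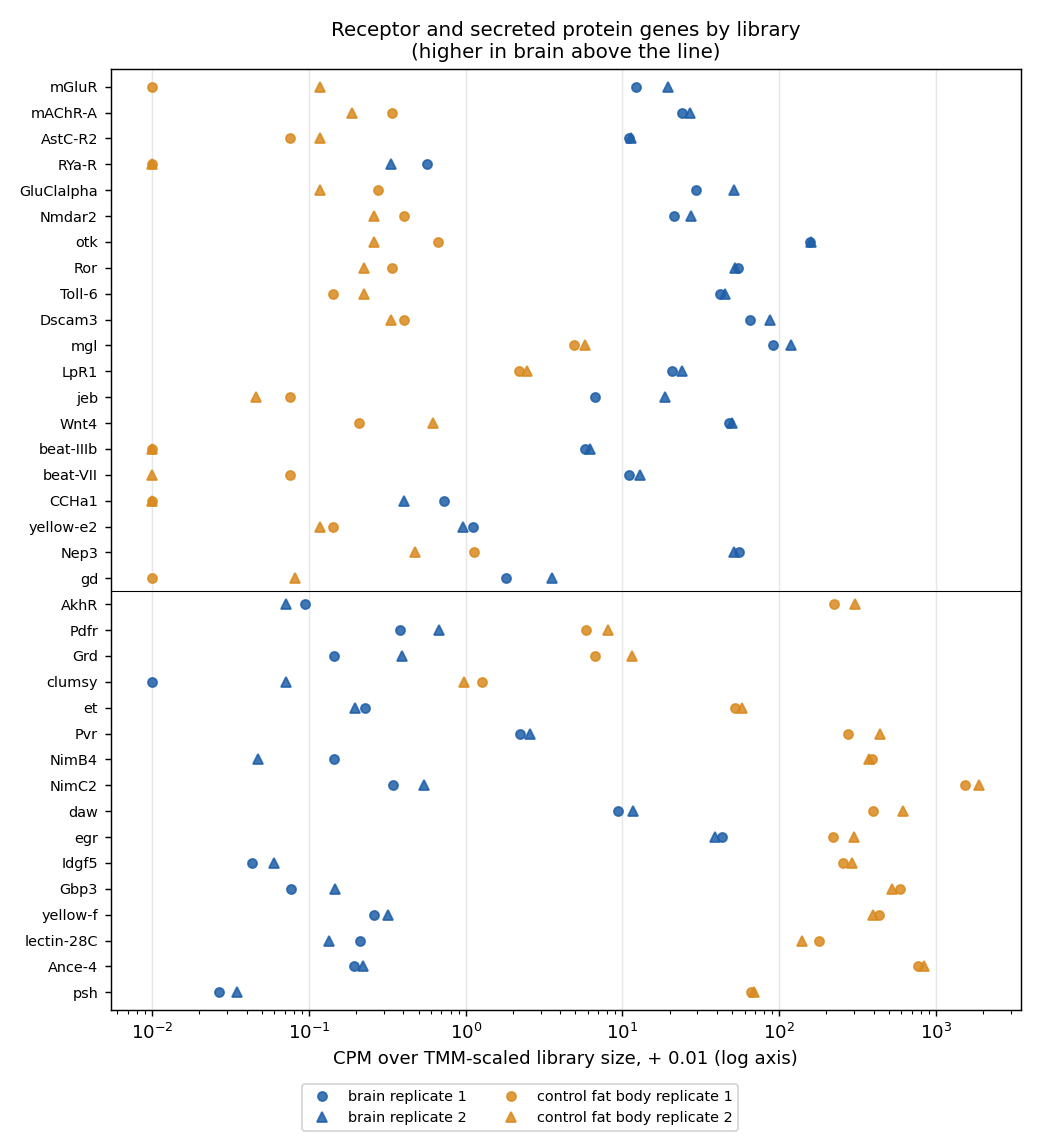
CPM over TMM-scaled library size, with 0.01 added, on a log axis for 36 receptor and secreted protein genes in the 2 brain and the 2 control fat body libraries. The 20 genes above the line were called higher in brain and the 16 below it lower. They were picked by call and size of change, which favours tissues that do not overlap, and none overlaps here. AkhR stands at 0.0839 and 0.0619 CPM in brain and 223 and 304 CPM in fat body. RYa-R is not called without brain replicate 1 (adjusted p = 0.0801) or fat body replicate 2 (0.0589), and clumsy (0.0576), Pdfr and egr are not called by library size alone.

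The list of fat body derived and growth blocking peptides was largely drawn from known fat body products, so a lean to fat body was built in. It also holds larger proteins such as transferrin. Of 22 tested members 21 were lower in brain and 16 fat-body-restricted, and CCHa1, at 0 counts in fat body, was the 1 higher (median -6.57). Growth blocking peptides link amino acid supply to insulin release. Gbp1 (FBgn0034199) had 0 and 0.0371 CPM in brain, against 56.7 and 40.9 in fat body (fat body over brain ratio 2176, 95% counting interval 744 to 10560.0, adjusted p = 7.99e-06). Gbp2 (FBgn0034200) had 0.235 and 0.198 CPM in brain, against 1057 and 998 in fat body (log2 fold change -12.20 ± 0.30 SE, adjusted p = 3.87e-06). Gbp3 (FBgn0039031) had 0.0672 and 0.136 CPM in brain, against 592 and 525 in fat body (log2 fold change -12.33 ± 0.41 SE, adjusted p = 3.94e-06). Gbp1 had 3 counts in the brain libraries together, Gbp2 had 30 and Gbp3 had 15. Ilp6 (FBgn0044047), an insulin-like peptide of the fat body, had 2.94 and 2.56 CPM in brain, against 165 and 279 in fat body (log2 fold change -6.34 ± 0.37 SE, adjusted p = 1.70e-05). Lst (FBgn0034140), the gene of limostatin, a suppressor of insulin release, had 0.185 and 0.2103 CPM in brain, against 588 and 734 in fat body (log2 fold change -11.68 ± 0.34 SE, adjusted p = 3.87e-06). Tsf1 (FBgn0022355), the iron carrier transferrin, had 32.9 and 26.4 CPM in brain, against 1399 and 1375 in fat body (log2 fold change -5.55 ± 0.27 SE, adjusted p = 8.58e-06). Fat body values were within 2-fold between replicates for all of these.

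In the list of extracellular proteases and inhibitors 7 of 26 were higher and 15 lower, with 1 brain-restricted and 11 fat-body-restricted (median -4.19). Among them are proteases of the Toll pathway, of which 5 fat-body-restricted genes, 3 of them picked after their values were seen, and gd are given here. In outline, ModSP activates Grass, Persephone and Hayan respond to danger signals, and the Spätzle-processing enzyme SPE cleaves the ligand of Toll. modSP (FBgn0051217) had 0.252 and 0.297 CPM in brain, against 89.4 and 96.6 in fat body (log2 fold change -8.38 ± 0.23 SE, adjusted p = 3.87e-06), and grass (FBgn0039494) had 0.554 and 0.4701 CPM in brain, against 99.2 and 104 in fat body (log2 fold change -7.63 ± 0.22 SE, adjusted p = 3.87e-06). psh (FBgn0030926) had 0.0168 and 0.0247 CPM in brain, against 66.4 and 68.6 in fat body (fat body over brain ratio 3175, 95% counting interval 1085 to 15403, adjusted p = 3.87e-06). The related protease gene Hayan (FBgn0030925) had 0.269 and 0.458 CPM in brain, against 174 and 229 in fat body (log2 fold change -9.08 ± 0.40 SE, adjusted p = 6.62e-06), and SPE (FBgn0039102) had 0.0168 and 0.148 CPM in brain, against 55.05 and 38.3 in fat body (log2 fold change -8.96 ± 0.57 SE, adjusted p = 2.23e-05). None of these 5 genes reached 1 CPM in a brain library. gd (FBgn0000808), known from the activation of Toll in the embryo, went the other way with 1.796 and 3.53 CPM in brain, against 0 and 0.0718 in fat body (brain over fat body ratio 60.1, 95% counting interval 16.5 to 498, adjusted p = 0.00117). Peptidases of 1 family stood on both sides. They are the neprilysins, which cut peptides. Nep3 (FBgn0031081) had 55.3 and 51.3 CPM in brain, against 1.12 and 0.467 in fat body (log2 fold change 6.18 ± 0.55 SE, adjusted p = 9.85e-05). Nep6 (FBgn0030425) had 0.0504 and 0.371 CPM in brain, against 124 and 164 in fat body (log2 fold change -9.31 ± 0.74 SE, adjusted p = 6.06e-05). Ance-4 (FBgn0033366), a relative of angiotensin converting enzyme, averaged 0.197 ± 0.0181 CPM in brain and 801 ± 47.7 in fat body (SD, n = 2 each; log2 fold change -11.96 ± 0.30 SE, adjusted p = 3.87e-06). Yellow family and C-type lectin genes were mostly not called (7 of 15) or lower (7), with a median of -1.49 that turned to 0.89 by library size alone, with 6 higher and 6 lower. yellow-f (FBgn0041710), which encodes a dopachrome conversion enzyme of melanin synthesis, had 0.252 and 0.309 CPM in brain, against 434 and 396 in fat body (log2 fold change -10.50 ± 0.31 SE, adjusted p = 3.87e-06), and lectin-28C (FBgn0040099) had 0.201 and 0.124 CPM in brain, against 179 and 139 in fat body (log2 fold change -9.94 ± 0.37 SE, adjusted p = 4.36e-06).

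Enzymes of purine synthesis and one-carbon metabolism were lower in brain in 24 of 35 tested cases and higher in 5, with 13 fat-body-restricted and 1 brain-restricted (median -3.55). Purine synthesis is the chain by which cells build the rings of adenine and guanine. Prat2 (FBgn0041194), an enzyme of its first step, had 0.252 and 0.359 CPM in brain, against 528 and 632 in fat body (log2 fold change -10.86 ± 0.39 SE, adjusted p = 4.17e-06). Gart and Paics act later in the chain. Gart (FBgn0000053) had 32.2 and 28.2 CPM in brain, against 3931 and 4320.3 in fat body (log2 fold change -7.09 ± 0.49 SE, adjusted p = 3.34e-05). Paics (FBgn0020513) had 33.8 and 28.4 CPM in brain, against 3415 and 3444 in fat body (log2 fold change -6.78 ± 0.30 SE, adjusted p = 6.48e-06). ry (FBgn0003308), xanthine dehydrogenase at the end of purine breakdown, had 3.31 and 2.57 CPM in brain, against 156 and 174 in fat body (log2 fold change -5.81 ± 0.25 SE, adjusted p = 6.39e-06). Each of these genes was lower in brain, while Prat, the relative of Prat2, was not. Gnmt methylates glycine to sarcosine and Sardh takes that methyl group off. Gnmt (FBgn0038074) had 0.151 and 0.2598 CPM in brain, against 552 and 321 in fat body (log2 fold change -11.00 ± 0.65 SE, adjusted p = 1.69e-05). Sardh (FBgn0034276) had 0.0336 and 0.09897 CPM in brain, against 290.2 and 317 in fat body (log2 fold change -12.02 ± 0.41 SE, adjusted p = 4.08e-06). The pteridine enzyme gene Pu (FBgn0003162) had 4.13 and 4.42 CPM in brain, against 1968 and 2229 in fat body (log2 fold change -8.94 ± 0.37 SE, adjusted p = 5.56e-06). Hn (FBgn0001208), phenylalanine hydroxylase, had 0.201 and 0.334 CPM in brain, against 1051 and 1161 in fat body (log2 fold change -11.97 ± 0.38 SE, adjusted p = 3.87e-06). The list also holds the dopamine and serotonin enzyme gene Ddc (FBgn0000422), its brain-restricted member, with 10.1 and 11.9 CPM in brain, against 0.264 and 0.251 in fat body (log2 fold change 5.41 ± 0.33 SE, adjusted p = 1.93e-05).

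Enzymes of amino acids and transmitters held genes restricted to each tissue, 6 to brain and 6 to fat body, among 30 tested (9 higher, 16 lower, median -1.64, but 13 higher, 9 lower and 0.75 by library size alone). Of those of brain, 4 make or clear transmitters. Gad1 (FBgn0004516), which makes GABA, had 31.4 and 28.7 CPM in brain, against 0.264 and 0.287 in fat body (log2 fold change 6.74 ± 0.35 SE, adjusted p = 1.15e-05). Gabat (FBgn0036927), which breaks GABA down, averaged 104 ± 12.6 CPM in brain and 1.28 ± 0.124 in fat body (SD, n = 2 each; log2 fold change 6.34 ± 0.30 SE, adjusted p = 8.54e-06), and ChAT (FBgn0000303), which makes acetylcholine, averaged 20.6 ± 3.17 CPM in brain and 0.2698 ± 0.179 in fat body (SD, n = 2 each; log2 fold change 6.41 ± 0.42 SE, adjusted p = 2.73e-05). e (FBgn0000527), the gene ebony, whose enzyme couples beta-alanine to histamine and dopamine, had 6.698 and 6.54 CPM in brain, against 0.132 and 0.0718 in fat body (log2 fold change 6.08 ± 0.43 SE, adjusted p = 3.73e-05). Enzymes of proline stood on both sides, and slgA, P5CDh1 and Oat were picked after their values were seen. The enzymes of slgA and P5CDh1 degrade proline. slgA (FBgn0003423) had 66.3 and 65.2 CPM in brain, against 1.65 and 0.682 in fat body (log2 fold change 5.91 ± 0.40 SE, adjusted p = 2.85e-05). P5CDh1 (FBgn0037138) had 87.5 and 79.6 CPM in brain, against 2.38 and 0.754 in fat body (log2 fold change 5.84 ± 0.52 SE, adjusted p = 9.42e-05). The proline-forming reductase gene P5cr-2 (FBgn0038516) had 0.571 and 0.841 CPM in brain, against 111 and 133 in fat body (log2 fold change -7.42 ± 0.36 SE, adjusted p = 8.61e-06), and Oat (FBgn0022774), ornithine aminotransferase, had 14.4 and 12.4 CPM in brain, against 1282 and 1156 in fat body (log2 fold change -6.51 ± 0.45 SE, adjusted p = 3.17e-05). Of the polyamine enzymes, Odc1 (FBgn0013307) averaged 0.201 ± 0.0475 CPM in brain and 447 ± 117 in fat body (SD, n = 2 each; log2 fold change -11.07 ± 0.44 SE, adjusted p = 4.88e-06). v (FBgn0003965), the gene of tryptophan dioxygenase, had 0.0336 and 0.111 CPM in brain, against 79.9 and 88.8 in fat body (log2 fold change -10.04 ± 0.41 SE, adjusted p = 5.22e-06).

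Alcohol, aldehyde, ester and desaturase enzymes were lower in brain in 19 of 29 tested cases and higher in 5, with 8 fat-body-restricted and 1 brain-restricted (median -2.72; 9 higher and 11 lower by library size alone). Sodh1 (FBgn0024289), sorbitol dehydrogenase, had 0.0168 and 0.0124 CPM in brain, against 90.8 and 55.5 in fat body (fat body over brain ratio 4767, 95% counting interval 1318 to 39381, adjusted p = 4.65e-06). alpha-Est1 (FBgn0015568) had 0.134 and 0.148 CPM in brain, against 112 and 107 in fat body, and alpha-Est2 (FBgn0015570) had 0.0839 and 0.285 CPM in brain, against 223 and 240.0 in fat body. These esterase genes belong to a cluster of relatives that may share reads. The largest differences toward brain were in esterase relatives of the nerve cell surface. Nrt (FBgn0004108), the adhesion protein neurotactin, had 554 and 469.9 CPM in brain, against 2.904 and 1.69 in fat body (log2 fold change 7.83 ± 0.94 SE, adjusted p = 0.000382), and Ace (FBgn0000024), acetylcholinesterase, had 101 and 99.1 CPM in brain, against 3.04 and 8.25 in fat body (log2 fold change 4.12 ± 0.71 SE, adjusted p = 0.00202). Glt (FBgn0001114), glutactin, is another esterase relative and was fat-body-restricted at 2.64 and 1.82 CPM in brain and 2123 and 2622 in fat body (log2 fold change -10.06 ± 0.37 SE, adjusted p = 4.20e-06). Second messenger enzymes leaned the other way, with 19 of 34 higher, 8 lower and 1 fat-body-restricted (median 1.73; 29 higher and 3 lower by library size alone). The soluble guanylyl cyclase gene Gycbeta100B (FBgn0013973) had 9.85 and 12.3 CPM in brain, against 0.33 and 0.0359 in fat body (log2 fold change 6.20 ± 0.65 SE, adjusted p = 0.000209). ACXD (FBgn0040507), of the adenylyl cyclases, had 0.218 and 0.396 CPM in brain, against 75.6 and 73.6 in fat body (log2 fold change -7.88 ± 0.32 SE, adjusted p = 5.12e-06). Carbonic anhydrases, energy kinases and glycosylation enzymes were mixed, with 12 of 26 higher, 6 lower and 8 not called (median 0.37), but 21 were higher and 1 lower by library size alone. In this list Csas (FBgn0052220), which activates sialic acid for glycoproteins of neurons, had 8.75 and 6.41 CPM in brain, against 0 and 0.0359 in fat body (brain over fat body ratio 318, 95% counting interval 57.01 to 12585, adjusted p = 8.22e-05). Argk1 (FBgn0000116), arginine kinase, the energy buffer of insect cells, had 677 and 490.1 CPM in brain, against 9.31 and 4.13 in fat body (log2 fold change 6.46 ± 0.73 SE, adjusted p = 0.000287).

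In pairs of related genes the ratio of the 2 genes within a library does not depend on how libraries are scaled, but the calls of the members do. Such a ratio still carries the lengths of both genes, so only its shift between tissues was read. Of 29 pairs measured, 27 had both members tested, and 8 of these had members called in opposite directions. Of all genes tested 35.5% were higher in brain and 34.5% lower. How often unrelated genes would give opposite calls or separate ratios was not tested. The ratio did not overlap between tissues in 22 pairs, and in 16 of them the shift was also over 4-fold. The pairs with opposite calls were AkhR and CrzR, GLaz and NLaz, Eaat2 and Eaat1, Actbeta and daw, nSyb and Syb, nrv3 and nrv1, fz2 and fz, and Prat2 and Prat. In 5 pairs both members were higher and in 7 both were lower. By library size alone 7 pairs had opposite calls, of which 3 were among the 8 by TMM (AkhR and CrzR, Actbeta and daw, Prat2 and Prat), and without storage genes in the totals 6 did, of which 4 were among them. At either of these scales 4 of the 7 pairs with both members lower were left, and those of Hex-A, Vha100-1 and dl were not. Without brain replicate 1 both members were higher in 2 of the 5 pairs, since Act5C (adjusted p = 0.153), TkR99D (0.0666) and CCHa1-R (0.0514) were no longer called. Act5C also lost its call without fat body replicate 1 (0.112) or 2 (0.176), and TkR99D and CCHa1-R theirs without brain replicate 2 (0.151 and 0.0653).

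The synaptobrevin pair shifted by over 4-fold. The log2 ratio of nSyb, the synaptic vesicle form, to Syb, the form of general secretion, was 1.23 and 1.54 in brain, against -10.72 and -10.64 in fat body. Syb (FBgn0003660) itself had 28.2 and 21.6 CPM in brain, against 167 and 143 in fat body (log2 fold change -2.64 ± 0.22 SE, adjusted p = 7.05e-05), and its adjusted p was 0.256 by library size alone. For the excitatory amino acid transporters, the log2 ratio of Eaat2 to Eaat1 was -0.49 and -0.14 in brain, against -12.87 and -9.91 in fat body. Eaat1 (FBgn0026439) was lower in brain at 85.9 and 74.4 CPM in brain and 248 and 362 in fat body (log2 fold change -1.93 ± 0.27 SE, adjusted p = 0.000737). Its value turned to 0.47 by library size alone, which was not called (adjusted p = 0.111), while Eaat2 had 61.1 and 67.6 CPM in brain and 0 and 0.359 in fat body. For the beta subunits of the sodium pump, the log2 ratio of nrv3 to nrv1 was 1.21 and 1.61 in brain, against -4.85 and -5.13 in fat body. nrv3 (FBgn0032946) was higher in brain (log2 fold change 5.22 ± 0.25 SE, adjusted p = 8.61e-06), and nrv1 was lower by TMM (log2 fold change -1.21 ± 0.20 SE, adjusted p = 0.00155). By library size alone nrv1 was called higher (1.17, adjusted p = 0.00131), and without storage genes it was not called (0.15, adjusted p = 0.494).

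Ratios also shifted in pairs of receptors, ligands and lipocalins. The log2 ratio of AkhR to CrzR, receptors of related peptides, was -5.64 and -6.13 in brain, against 8.20 and 8.17 in fat body, and CrzR (FBgn0036278), the corazonin receptor gene, had 4.6 and 4.78 CPM in brain, against 0.726 and 1.04 in fat body (log2 fold change 2.38 ± 0.34 SE, adjusted p = 0.000891). For the activin-like ligands the log2 ratio of Actbeta to daw was 1.35 and 1.28 in brain, against -7.49 and -8.26 in fat body, and Actbeta (FBgn0024913) had 23.8 and 28.4 CPM in brain, against 2.18 and 2.01 in fat body (log2 fold change 3.64 ± 0.20 SE, adjusted p = 1.23e-05). For the Wnt receptors the log2 ratio of fz2 to fz was 1.87 and 1.75 in brain, against 8.74 and 8.89 in fat body. fz (FBgn0001085) was brain-restricted at 35.9 and 40.7 CPM in brain and 0.792 and 0.7895 in fat body (log2 fold change 5.59 ± 0.34 SE, adjusted p = 1.98e-05), and fz2 was lower in brain by TMM (log2 fold change -1.45 ± 0.19 SE, adjusted p = 0.000648) but 0.94 by library size alone. For the lipocalins the log2 ratio of GLaz to NLaz was -0.98 and -0.78 in brain, against -5.61 and -6.32 in fat body, with GLaz (FBgn0033799) at 3.26 and 3.28 CPM in brain and 0.396 and 0.287 in fat body (log2 fold change 3.28 ± 0.46 SE, adjusted p = 0.000762). NLaz was lower by TMM (log2 fold change -1.91 ± 0.35 SE, adjusted p = 0.00259) but 0.47 and not called by library size alone (adjusted p = 0.193).

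Enzyme pairs shifted too. The log2 ratio of Prat2 to Prat, both enzymes of the first step of purine synthesis, was -5.13 and -4.42 in brain, against 6.69 and 6.88 in fat body. Prat (FBgn0004901) was slightly higher in brain at 9.12 and 7.78 CPM in brain and 5.08 and 5.35 in fat body (log2 fold change 0.69 ± 0.20 SE, adjusted p = 0.0181), a call that was lost without brain replicate 1 (adjusted p = 0.121), without fat body replicate 1 (0.0650) or without fat body replicate 2 (0.0519). The log2 ratio of Gs1 to Gs2, the mitochondrial and cytosolic glutamine synthetases, was -1.61 and -1.09 in brain, against 4.21 and 4.85 in fat body, with Gs1 (FBgn0001142) fat-body-restricted at 34.9 and 31.1 CPM in brain and 2466 and 3181 in fat body (log2 fold change -6.42 ± 0.28 SE, adjusted p = 6.42e-06). The perilipins, which coat fat droplets, had a log2 ratio of Lsd-2 to Lsd-1 of 4.98 and 4.56 in brain, against -2.22 and -1.86 in fat body. Both perilipin genes were lower in brain, Lsd-2 (FBgn0030608) with 61.7 and 54.5 CPM in brain and 615 and 784 in fat body (log2 fold change -3.59 ± 0.25 SE, adjusted p = 3.21e-05) and Lsd-1 with 1.95 and 2.301 CPM in brain and 2866 and 2846 in fat body. The NF-kB pair dl and Dif had a log2 ratio of -2.38 and -1.80 in brain, against 0.34 and 0.68 in fat body. dl (FBgn0260632) had 1.63 and 2.31 CPM in brain and 28.8 and 49.8 in fat body (log2 fold change -4.31 ± 0.33 SE, adjusted p = 5.16e-05), and Dif was lower by TMM (log2 fold change -1.70 ± 0.20 SE, adjusted p = 0.000384) but 0.69 by library size alone. By contrast the ratios of the hexokinases Hex-A and Hex-C (6.42 and 5.63 in brain, against 5.50 and 6.16 in fat body) and of the proton pump subunits Vha100-1 and Vha100-2 (2.30 and 2.70 in brain, against 2.49 and 3.18 in fat body) overlapped between tissues.

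**Figure D5:**
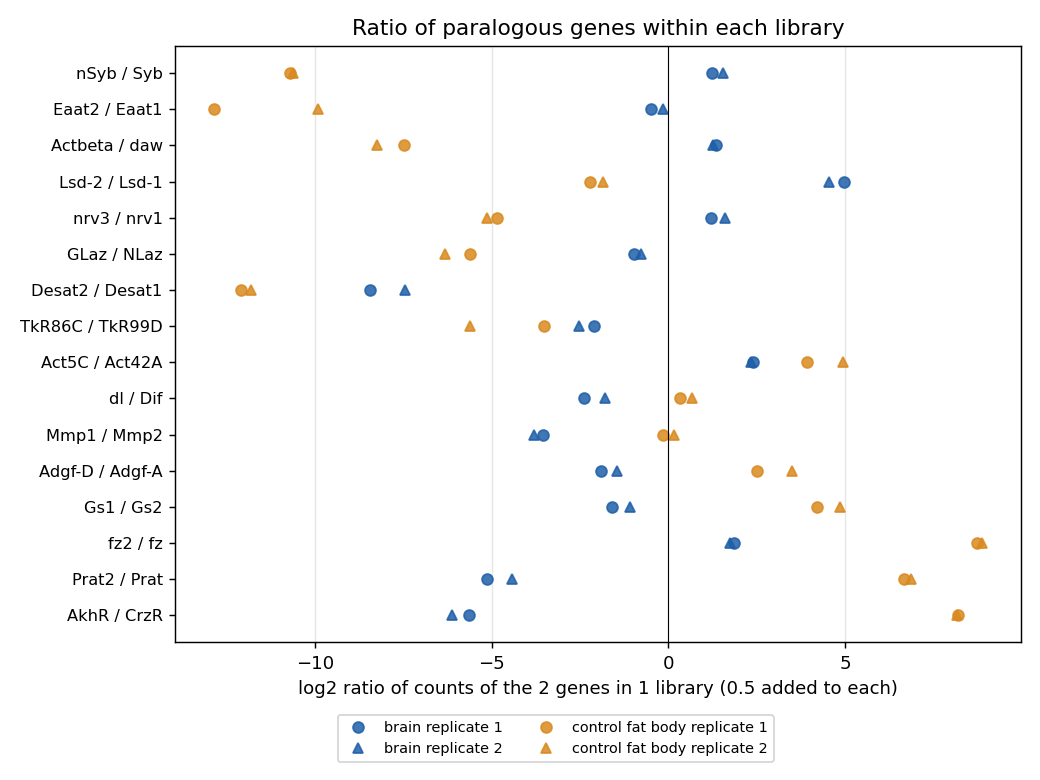
The log2 ratio of the counts of 2 related genes within a library, with 0.5 added to each count, for the 16 pairs whose ratio did not overlap between tissues and shifted over 4-fold, in the 2 brain and the 2 control fat body libraries. The widest shifts are those of AkhR and CrzR, nSyb and Syb, Prat2 and Prat, and Eaat2 and Eaat1.

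Beyond the lists, the restricted genes of at least 50 CPM with the largest changes add other functions. In brain they include stan (FBgn0024836), a cadherin of planar polarity and axon growth, with 353 and 432 CPM in brain, against 1.12 and 1.33 in fat body (log2 fold change 8.30 ± 0.83 SE, adjusted p = 0.000161), and GstZ2 (FBgn0037697), a glutathione transferase gene, with 173 and 141 CPM in brain, against 0.858 and 0.359 in fat body (log2 fold change 8.12 ± 0.58 SE, adjusted p = 3.70e-05). Genes known only by number were also among them. CG14989 (FBgn0035495) had 94.8 and 78.2 CPM in brain, against 0.066 and 0.251 in fat body (log2 fold change 8.87 ± 0.38 SE, adjusted p = 5.88e-06). CG9098 (FBgn0031762) averaged 52.9 ± 1.21 CPM in brain and 0.174 ± 0.0589 in fat body (SD, n = 2 each; log2 fold change 8.14 ± 0.25 SE, adjusted p = 3.87e-06). CG6329 (FBgn0033872) averaged 82.2 ± 2.31 CPM in brain and 0.276 ± 0.0163 in fat body (SD, n = 2 each; log2 fold change 8.19 ± 0.42 SE, adjusted p = 1.02e-05). The brain replicates of these genes were within 1.5-fold of each other.

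On the fat body side the largest changes were in secreted and other proteins. Spn88Eb (FBgn0038299), a serpin, had 0.0168 and 0.0247 CPM in brain, against 135 and 141 in fat body (fat body over brain ratio 6498, 95% counting interval 2223 to 31521, adjusted p = 3.87e-06). Cyt-b5-r (FBgn0000406), a cytochrome b5 relative, had 0.0336 and 0.111 CPM in brain, against 537 and 414 in fat body (log2 fold change -12.54 ± 0.51 SE, adjusted p = 5.11e-06), and Srg1 (FBgn0039239) had 0.0672 and 0.223 CPM in brain, against 797 and 769 in fat body (log2 fold change -12.30 ± 0.52 SE, adjusted p = 5.73e-06). Genes known by number included CG18557 (FBgn0031470) with 0 and 0.0124 CPM in brain, against 79.6 and 78.5 in fat body (fat body over brain ratio 11071, 95% counting interval 1986 to 437420.0, adjusted p = 3.87e-06) and CG15820 (FBgn0035312) with 0 and 0.0247 CPM in brain, against 87.6 and 115 in fat body (fat body over brain ratio 7406, 95% counting interval 2049 to 61171, adjusted p = 5.11e-06). CG6415 (FBgn0032287) averaged 0.0601 ± 0.0375 CPM in brain and 364 ± 79.3 in fat body (SD, n = 2 each; log2 fold change -12.42 ± 0.45 SE, adjusted p = 4.20e-06). CG5773 (FBgn0034290) averaged 0.293 ± 0.0581 CPM in brain and 1459.8 ± 488 in fat body (SD, n = 2 each; log2 fold change -12.25 ± 0.53 SE, adjusted p = 6.02e-06). TotC (FBgn0044812), a stress-induced Turandot gene, had 0 and 0 CPM in brain, against 14.1 and 95.9 in fat body (at least 3139-fold lower in brain, taking 3 counts as the floor, adjusted p = 0.00353). Its fat body libraries were far apart, and its adjusted p was 0.0684 without fat body replicate 1, 0.0680 without fat body replicate 2, 0.0884 with no filter on low counts and 0.105 with the 4 libraries of the contrast only.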

How the data were processed

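Polyadenylated RNA was sequenced from pooled larval tissue. The authors deposited unscaled read counts, whole numbers for each FlyBase gene. Per the submitters' processing notes TopHat, HTSeq, DESeq and the dm3 build were involved. How reads were counted, with which strand setting and annotation, is not given in the sources used here. For this reason multi-copy, overlapping and antisense genes are uncertain. The authors' deposited table gives, per the file headers, a signal (the mean of size-factor scaled counts), a ratio (fold change), its log2 and a p-value. It was used for its adjusted calls. Nothing upstream of the counts was rerun, and no sequences were analysed.

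Of 14869 identifiers 13532 received a symbol from release 6 gene tables, 8 through RefSeq synonyms, and 1337 did not. Those without a symbol took 13.7% and 14.5% of counts in brain and 4.63% and 5.32% in fat body. Of 819 list entries 742 were matched (739 genes) and 77 were not, and 29 of 37 gene pairs were matched.

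Genes passing filterByExpr (10029) were scaled by TMM, with factors of 2.88 and 3.05 in brain and 0.586 and 0.547 in fat body. They were fitted with edgeR 4.0.16 (robust quasi-likelihood, group as only term) over all 6 libraries, leaving 3 residual degrees of freedom. Fold changes are brain over fat body. Between replicates, log2 CPM with a prior count of 2 correlated across genes at 0.985 in brain and 0.964 in fat body. Floors of 3 counts per group and the 95% exact intervals cover counting error only. Alternatives were other scalings, DESeq2 1.42.0, other filters, 4 libraries only, a replicate block, each library left out, and other limits for restriction.

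The members, lists, pairs and tests were chosen with earlier results of these data known. For each list the rule named up to 4 restricted genes per direction, or up to 2 called ones where fewer than 2 were restricted. It also named both members of each pair and the 12 largest restricted changes per direction at 50 CPM or more. The text leaves some out. Outside the rule, and after their values were seen, were named N, Sdr, unc-5, robo3, Akh, CCHa2, CCHa2-R, Gbp1, Ilp6, Lst, Tsf1, modSP, grass, SPE, Gart, Paics, ry, Pu, slgA, P5CDh1, Oat, LManII and the genes at the boundary of restriction.

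On simulated counts (9528 genes run) edgeR found 0% of genes altered 1.5-fold, 8% at 2-fold, 80% at 4-fold and 80% at 16-fold. It made 3 calls among 9335 unaltered genes. Apart from 200 altered genes, every simulated group had the same means. The simulation thus lacked the difference in composition between brain and fat body, and cannot show how the calls behave under it. Software was R 4.3.3, Python 3.11.15, pandas 2.3.3, scipy 1.17.1 and matplotlib 3.10.9.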

Additional observations from a re-analysis of the deposited data

How the results depend on the processing

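The counts moved with the scaling and with the limit for restriction. By library size alone 7574 genes were higher and 1183 lower (86.5% of calls higher, against 50.7%), with 1291 brain-restricted and 281 fat-body-restricted. With storage genes left out of the totals the counts were 6108 and 1746 (77.8%), and 979 brain-restricted. Over all genes the median log2 fold change became 2.49, 1.46 and, by upper quartile, 0.44 (58.5% of calls higher). A limit of 1/8 gave 960 and 850 restricted genes, and a limit 4 times stricter than 1/32 gave 149 and 325. Leaving out each library in turn gave 2903 to 3290 higher, 2785 to 3391 lower, 557 to 683 brain-restricted and 503 to 582 fat-body-restricted genes. The replicate numbers pair the libraries in name only (2 pairs, r = 0.188 between deviations). The replicate block gave 3352 higher and 3306 lower genes and the same 544 and 503 restricted genes.

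By library size alone these log2 fold changes reversed: CHES-1-like 0.54, Sox14 0.70, Gs2 1.87, Dif 0.69, CAH1 1.51, Hex-A 0.69, Hex-C 0.48, NLaz 0.47, Eaat1 0.47, Mmp1 1.59, Pvf2 1.70, Vha100-1 0.82, Vha100-2 1.14, nrv1 1.17, Desat2 1.76, fz2 0.94 and Adgf-A 2.07, and list medians for GATA, ETS and NF-kB 0.78, leucine zipper 1.24, nuclear receptor 1.98, yellow and lectin 0.89 and amino acid enzyme genes 0.75. Without storage genes in the totals Gs2 was 0.85, CAH1 0.49, Mmp1 0.56, Pvf2 0.68, Vha100-2 0.11, nrv1 0.15, Desat2 0.74, Adgf-A 1.04, leucine zipper genes 0.21 and nuclear receptors 0.95. Adgf-A was 0.017 by upper quartile. With each library left out in turn Adgf-A ranged from -0.62 to 0.13, CAH2 from -0.48 to 0.90 and Pvf3 from -0.080 to 1.10. Gs2, CAH1, CAH2, Mmp1, Pvf3, Pvf2, Desat2 and Adgf-A were not called at TMM. By library size alone CHES-1-like (adjusted p = 0.187), Hex-C (0.382), NLaz (0.193) and Eaat1 (0.111) were not called. Without storage genes CAH1 (0.229), Mmp1 (0.195), Pvf2 (0.226), Vha100-2 (0.574), nrv1 (0.494) and Desat2 (0.281) were not called. Why these values turned was not tested. Groups of 2 libraries limit every test, and genes of a few counts have wide intervals. A lone library left in a group was assumed to vary like the other groups.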
